A study of Mus musculus with 12 samples.

Results

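Cells carrying a SOX17 reporter signal were sorted in 2 ways from differentiating E14 mouse embryonic stem cells, as SOX17+ and as SOX17+/T+ (double-positive), and the 2 populations were compared across all genes. The comparison rests on 6 of the 12 libraries of the series, 3 SOX17+ and 3 SOX17+/T+. The 3 libraries sorted as T+ and the 3 of undifferentiated stem cells (mESC, kept with serum and LIF on irradiated fibroblast feeders) entered the same fit and are given only as levels. All groups derive from the E14 line, a male mouse embryonic stem cell line. The labels do not describe the reporter design, the number of reporter clones, the differentiation protocol or the day of the sort, nor do they say that the SOX17+ gate left out every T+ cell. They also name no separate cultures behind the 3 libraries of a group, so p-values capture only library-to-library spread, which may be technical. Of 54446 genes in the table, 16097 had a TPM of at least 1 (transcript abundance scaled to gene length and library total) in 3 or more of the 12 libraries and were tested.

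T (Brachyury) is a T-box transcription factor of the primitive streak, the nascent mesoderm and the notochord, and it is lost as cells leave the streak for paraxial or lateral fates. SOX17 is an HMG-box factor best known in definitive endoderm, but it also marks visceral endoderm, the extraembryonic layer that feeds the early embryo, and it acts in endothelium, including the endothelium that gives rise to blood. In the yolk sac, visceral endoderm lies against the mesoderm that makes the first vessels and the first, primitive red cells, which carry embryonic globins. A SOX17 reporter alone can therefore collect cells of several origins, and bulk RNA does not resolve them.

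A difference below is the SOX17+ mean minus the SOX17+/T+ mean of log2(TPM + 1), ± its standard error, from limma. Calls were made where the limma p, adjusted after Benjamini and Hochberg, fell under 0.05, and "higher" and "lower" refer to SOX17+ cells. The scale understates differences of genes near or below 1 TPM. The read depth behind a single value is not known from the table, so the precision of low values is unknown.

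The sort was visible in the reporter genes, on which the gates themselves act. The T gene (ENSMUSG00000062327.10, chr17:8434423-8442496, GRCm38) stood at 2.27, 1.86 and 2.84 TPM in SOX17+ replicates 1, 2 and 3, and at 40.4, 31.7 and 61.5 TPM in SOX17+/T+. The difference was -3.73 ± 0.24 (adjusted p = 8.5e-07), and the groups did not overlap. T averaged 0.65 TPM in mESC and 127 TPM in T+ cells. Sox17 (ENSMUSG00000025902.13, chr1:4490931-4497354) was at 244, 211 and 235 TPM in SOX17+ and 148, 146 and 123 TPM in double-positive libraries (0.73 ± 0.14, adjusted p = 0.0016). The SOX17+ libraries were thus lower in T and higher in Sox17 transcript.

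Across all tested genes, 3189 were called higher (19.8%) and 2705 lower (16.8%), 36.6% in all. Most differences were small. The median absolute difference of a called gene was 0.35, and only 260 genes were called at least 2-fold higher (1.62%) and 177 at least 2-fold lower (1.10%). Among genes with a mean of at least 5 TPM, these 2-fold counts were 125 and 128. The median difference of all tested genes was 0.001. The 3 SOX17+ libraries all lay above the 3 double-positive libraries for 23.9% of tested genes and all below for 20.8%. The gene lists described below were read against these shares, and their members are counted among tested genes. Where limma called 0 members of a list in a direction, the count at an unadjusted p under 0.05 in that direction was also 0, except among BMP target genes, where it was 1 (Msx1, lower).

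**Figure D1:**
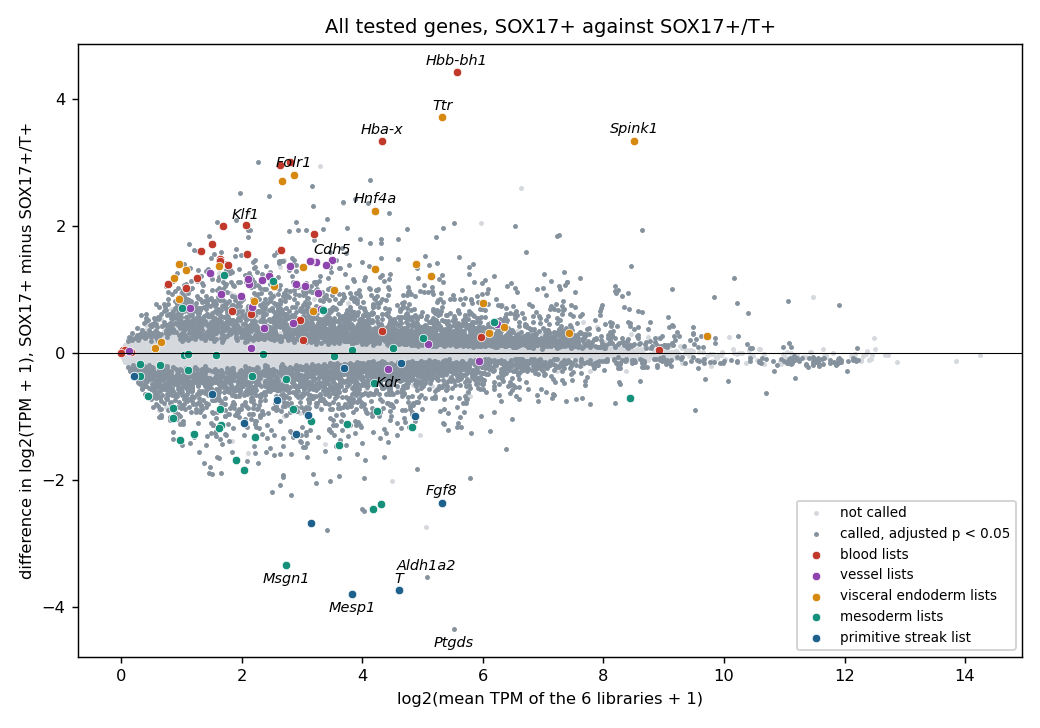
Each point is 1 of the 16097 tested genes, with its level in the 6 libraries on the x axis (log2 scale) and its difference between SOX17+ and SOX17+/T+ cells on the y axis (log2 scale). Blood genes (Hbb-bh1 at 4.42) and visceral endoderm genes (Ttr at 3.71) lie at the top, and mesoderm genes (Mesp1 at -3.79) and Ptgds (-4.34) at the bottom.

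The largest rises, taken among called genes with at least 10 TPM in SOX17+ cells and no overlap between groups, belonged to several cell types at once. In order they were Hbb-bh1, Ttr, Spink1, Hba-x, Hba-a1, Hba-a2, Folr1, Dpp4, Nkx2-1, Fgfr4, Ihh, Cdh6, Enpep, Hnf4a and Reln. This order mixes globins of red cells, carriers and enzymes of absorptive endoderm, transcription factors of endoderm and signalling molecules. The largest falls included Ptgds, Mesp1, T, Aldh1a2, Msgn1, Scara3, Tdgf1, Dll3, Alox15, Rspo3, Fgf8, Mfap4, Cer1 and Limch1, which include streak and paraxial mesoderm regulators.

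**Figure D2:**
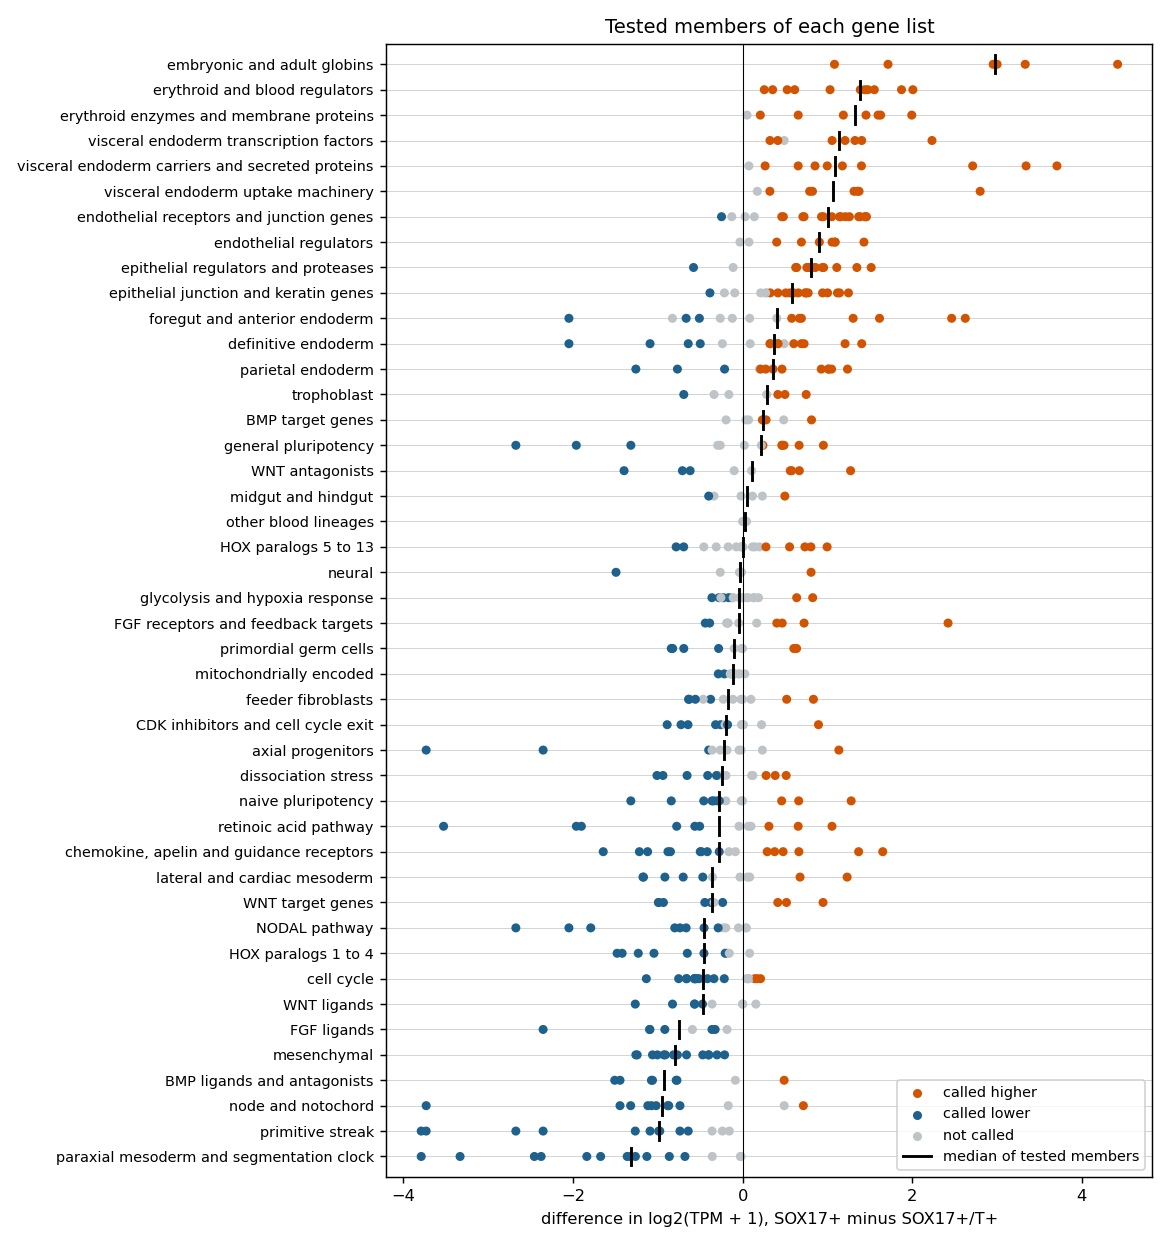
Each row is a gene list, each point a tested member with its difference in log2(TPM + 1) on the x axis, coloured by its call, and the black bar the median of the tested members. Lists of blood, visceral endoderm and vessel genes lie at the top, from globins at a median of 2.98, and paraxial mesoderm at the bottom with -1.32.

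Globin transcripts, which encode the oxygen carrier of red cells, were the furthest apart of all lists. Hbb-bh1, an embryonic beta-like globin of primitive erythroid cells (chr7:103841637-103843164), was listed at 51.9, 75.8 and 141 TPM in SOX17+ libraries and 1.66, 2.56 and 5.14 TPM in double-positive libraries. The lowest SOX17+ library lay far above the highest double-positive one, with a difference of 4.42 ± 0.36 (adjusted p = 6.0e-06). The embryonic alpha-like globin Hba-x (chr11:32276400-32278116) was at 19.6, 33.3 and 53.6 TPM against 1.15, 2.96 and 3.43 TPM, a difference of 3.33 ± 0.34 (adjusted p = 2.9e-05). Replicate 3 was the highest library within each group for both genes.

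The adult-type globins were present at lower levels. Hba-a1 was at 6.78, 9.17 and 18.3 TPM in SOX17+ cells and at 0.134, 0.398 and 0.871 TPM in double-positive cells (3.00 ± 0.29, adjusted p = 1.5e-05). Hba-a2 differed by 2.96 ± 0.30, Hbb-bs by 1.72 ± 0.08 and Hbb-bt by 1.08 ± 0.11. Hba-a1 and Hba-a2, and likewise Hbb-bs and Hbb-bt, are near-identical copies, so the split of reads within each pair is uncertain. Hbb-y, the other embryonic beta-like globin, did not pass the filter on low values: it was at 0.842, 1.24 and 1.50 TPM in SOX17+ libraries and listed at 0 in all double-positive libraries, so no fold is given.

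All 6 tested globins were called higher, but 4 of the 6 passed the filter only through the SOX17+ libraries, so that their difference was built into the selection. Without any filter, all 7 were called higher. The summed globin level was 89.4, 132 and 236 TPM in SOX17+ cells and 3.43, 6.42 and 10.8 TPM in double-positive cells, a ratio of 22.2. T+ cells held 1.67 to 3.33 TPM. The exact permutation test of 3 against 3 libraries cannot go below 0.10 (2-sided), which is the value here (p = 0.1). In bulk RNA, more red-cell precursors in the gate and more globin RNA per cell cannot be told apart.

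Regulators of the erythroid program were higher as well. Klf1, the zinc finger factor that switches on globin and red-cell membrane genes, was at 4.23, 5.46 and 7.46 TPM against 0.679, 0.515 and 0.726 TPM (2.01 ± 0.13, adjusted p = 1.8e-07). Tal1, a factor of the first blood and vessel precursors, was at 9.80, 12.3 and 13.4 TPM against 3.77, 3.81 and 3.49 TPM (1.44 ± 0.11). Both genes had no overlap between groups. The coactivator Cited4 (1.87 ± 0.20), the repressor Gfi1b (1.55 ± 0.14), the lymphoid and erythroid factor Ikzf1 (1.48 ± 0.13), Nfe2 (1.39 ± 0.12), Myb (1.03 ± 0.10) and Runx1 (0.61 ± 0.12) were also higher.

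Gata1, the central erythroid factor, showed a smaller difference. It was at 5.88, 8.58 and 10.2 TPM in SOX17+ cells and at 4.97, 4.56 and 6.46 TPM in double-positive cells, and these ranges overlapped (0.53 ± 0.17, adjusted p = 0.030). Its call was lost in 7 of 13 alternative settings, with an adjusted p of 0.0033 to 0.16 over them. Lmo2, a bridging protein of the same complex, was at 18.9, 22 and 23.4 TPM against 16.3, 14.2 and 19.2 TPM (0.35 ± 0.11, adjusted p = 0.022), and its call was lost in 6 of 14 settings. The double-positive cells thus held Gata1 and Lmo2 transcripts at levels near those of SOX17+ cells, while Klf1 and the globins were several-fold lower. In T+ cells Gata1 averaged 0.33 TPM and Lmo2 31.4 TPM.

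Of 12 listed erythroid and blood regulators, 11 were tested and all 11 were called higher (median 1.39), 4 of them passing only through the SOX17+ libraries. Over members with a mean of at least 5 TPM, 3 were called and the median was 0.35. Spi1, a myeloid factor, was below the filter (0.45 to 1.11 TPM). Without the filter 9 of 12 were called higher. Among enzymes and membrane proteins of red cells, 14 of 15 listed symbols were found, 8 were tested and 7 were called higher (median 1.32, but 0.13 over members with a mean of at least 5 TPM, of which 1 was called). Of the 8 tested, 4 passed only through the SOX17+ libraries. Without the filter 12 of 14 were called higher. Those called include the membrane protein Epb42 (1.6 ± 0.14), the blood group antigen Kel (1.46 ± 0.06) and the haem enzyme Alas2 (1.19 ± 0.12). The integrin chain Itga2b (1.63 ± 0.11), also called, is not particular to red cells. The erythropoietin receptor gene Epor differed by 0.66 ± 0.15.

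Late red-cell genes were scarce. Slc4a1, Hemgn and Rhag, which encode band 3, a nuclear protein and a membrane channel, each stayed at or under 0.323 TPM in every SOX17+ library, and Hemgn and Rhag were listed at 0 in all double-positive libraries. Markers of other blood lineages were near absent: of 10 genes, 4 were tested and limma called none. Without the filter limma called 1 of the 10 genes higher. Their summed level was 1.20 to 1.33 TPM in SOX17+ cells and 0.196 to 0.631 TPM in double-positive cells. Most of it was the myeloid enzyme gene Mpo (1.04, 1.13 and 0.885 TPM against 0.242, 0.355 and 0.189 TPM), which was below the filter. The pan-leukocyte gene Ptprc, the microglial gene Aif1 and the T cell gene Cd3e were listed at 0 in all SOX17+ libraries.

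A GATA core motif lay upstream of 12 of the 19 blood genes that differed and whose promoter could be searched. Of the 24 called members of the blood lists, 5 had no promoter in the RefSeq table (GRCm38.p6), and in 63.2% of the rest the letters GATAA occurred on either strand in the 250 bases before the annotated start. The same letters occurred for 17.1% of the 10690 tested genes with a promoter, 18.4% of those called higher and 17.3% of those called lower. Among called vessel genes they occurred in 2 of 13 and among called visceral endoderm genes, parietal genes included, in 5 of 25. The highest shares after blood were 2 of 5 called NODAL genes (40%) and 6 of 17 called endoderm genes (35.3%). Those endoderm genes come from the definitive, foregut and hindgut lists. Called migration genes held the letters in 1 of 13. The globin pairs share promoter sequence, so these genes are not independent, and a match is a description of letters and not a bound site. The match nearest the start is shown in capitals, in 30 bases read 5′ to 3′ on the strand of the gene, for 3 blood genes with large differences and for Hnf4a. Hbb-bh1 has no entry in the table.
Hba-x, chr11:32276481-32276510, plus strand: gttgctggctctGATAAcaggctccaccct
Hba-a1, chr11:32283478-32283507, plus strand: gtccgggcaactGATAAggattccctgcac
Klf1, chr8:84901890-84901919, plus strand: tttgcctgggtcTTATCagggaagacagcc
Hnf4a, chr2:163506794-163506823, plus strand: aagaatcaataaGATAAccgggcggggtgg
In Klf1 the capitals are the reverse complement, TTATC. The Hba-a1 and Klf1 windows lie just before the first GENCODE vM21 exon of their gene, by 4 and 9 bases. The Hba-x window lies inside an exon that GENCODE starts further upstream than RefSeq does, and the Hnf4a window overlaps the first exon of a distal transcript.

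The other motifs searched in the same 250 bases were less frequent and did not set the blood genes apart. CCACACCC, a KLF1 motif, occurred in 1 of 19 blood genes (Hbb-bs) and in 4.13% of tested genes. TGTTTAC, a FOXA motif, occurred in none of the 19, in 2 of 25 visceral endoderm genes (Foxa1 and Rbp4) and in 2.74% of tested genes. TCACACCT, part of the T motif, occurred in none of the 8 called streak genes with a promoter and in 0.814% of tested genes. All were searched on both strands, and none of the 4 motifs contains another.

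Vessel genes were higher in SOX17+ cells by a more even amount. Cdh5, the cadherin of endothelial junctions (chr8:104101625-104144511), was at 15.8, 17.1 and 13.6 TPM against 5.06, 5.55 and 4.37 TPM (1.46 ± 0.10, adjusted p = 2.7e-07). The receptor gene Tie1 was at 12.2, 13.3 and 10.3 TPM against 3.92, 4.27 and 3.01 TPM (1.45 ± 0.12). Neither gene overlapped between groups, and replicate 3 was the lowest library of both groups, unlike for the globins. Rasip1, needed for vessel lumens (1.39 ± 0.10), the junction gene Esam (1.37 ± 0.10), Icam2 (1.26 ± 0.12), Cldn5 (1.21 ± 0.13), the angiopoietin receptor Tek (1.16 ± 0.11), Cd34 (1.14 ± 0.09) and Pecam1 (1.05 ± 0.09) differed alike.

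The early vascular receptor did not follow them. Kdr, the VEGF receptor that marks the mesoderm from which blood and vessels arise, was at 20.5, 19.3 and 16.1 TPM in SOX17+ cells and 21.9, 21.1 and 23.7 TPM in double-positive cells (-0.25 ± 0.09, adjusted p = 0.047). That call was lost in 10 of 14 alternative settings (adjusted p 0.023 to 0.20). Its decoy-like relative Flt1 was higher at 95.2, 76.4 and 88.4 TPM against 71.2, 55.7 and 61.2 TPM (0.46 ± 0.10). Etv2, the factor that starts the blood and vessel program, was at 4.19, 4.00 and 2.58 TPM against 4.14, 3.07 and 2.80 TPM (0.08 ± 0.14, adjusted p = 0.74).

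Among endothelial regulators, Gata2 was at 11.2, 13.7 and 13.1 TPM against 3.96, 4.38 and 3.82 TPM (1.43 ± 0.08, adjusted p = 6.3e-08). The ETS factors Erg (1.09 ± 0.10) and Fli1 (0.91 ± 0.13) and the SOX17 relatives Sox18 (1.09 ± 0.12) and Sox7 (1.06 ± 0.11) were higher too. Of the 9 regulators, 7 were called higher and none lower, with a median of 0.91, and Etv2 and Mef2c were not called. Of 22 receptors and junction genes, 20 were tested, 16 were called higher, 1 lower and 3 were not called (Egfl7, Ramp2 and Robo4), with a median of 1.00 (0.48 over members with a mean of at least 5 TPM, 6 of them called higher). Of these, 2 passed only through the SOX17+ libraries. Markers of more mature or lymphatic endothelium, Emcn and Lyve1, were below the filter, at no more than 0.0761 TPM in the 6 libraries compared.

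Visceral endoderm genes included several large and even rises. Ttr, the thyroxine and retinol carrier of visceral endoderm and liver, was at 65.8, 82.3 and 72.4 TPM against 4.89, 4.91 and 4.26 TPM (3.71 ± 0.15, adjusted p = 3.9e-09). The protease inhibitor Spink1 was at 656, 683 and 651 TPM against 74.4, 61.5 and 58.4 TPM (3.34 ± 0.13). Apom, an apolipoprotein, was at 9.25, 10.1 and 10.5 TPM against 0.362, 0.871 and 0.831 TPM (2.71 ± 0.13). SOX17+ libraries lay within a narrow range for each of these genes and none overlapped with double-positive libraries. In T+ cells Ttr averaged 1.22 TPM and Spink1 10.4 TPM. In mESC Ttr averaged 0.043 TPM, Spink1 80.7 TPM and Apom 8.20 TPM, so Apom was not particular to SOX17+ cells.

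Lipoprotein assembly genes differed at lower levels. Apoa1 was at 2.07, 1.68 and 1.67 TPM against 0.0926, 0 and 0.0888 TPM (1.40 ± 0.08), Apob differed by 1.18 ± 0.10 and the transfer protein Mttp by 1.00 ± 0.08. Apoe, the most abundant listed carrier, was at 926, 888 and 936 TPM against 778, 815 and 698 TPM (0.27 ± 0.08, adjusted p = 0.029), a call lost in 5 of 14 settings. Several other yolk sac and liver proteins were scarce. Afp was at 0.367, 0.343 and 0.592 TPM in SOX17+ cells against 0.109, 0 and 0 TPM, without overlap but below the filter. Fga, Fgb and Apoa4 were likewise below the filter and without overlap, at no more than 0.625 TPM. Alb and Apoa2 were listed at 0 in all 3 libraries, and Serpina1a stayed below 0.05 TPM. Of 18 listed carriers, 10 were tested and 9 were called higher (median 1.09), 3 of them passing only through SOX17+ libraries. Without the filter 12 of 18 were called higher.

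The uptake machinery of visceral endoderm, which draws maternal protein into the cell, was also higher than in double-positive cells. Its summed level was 302 to 308 TPM in SOX17+ cells and 197 to 212 TPM in double-positive cells. In mESC it was 316 to 323 TPM, so the list was not particular to SOX17+ cells. The folate receptor gene Folr1 was at 11.6, 11.4 and 12.3 TPM against 0.688, 0.915 and 0.890 TPM (2.80 ± 0.08, adjusted p = 5.2e-10). In mESC Folr1 averaged 117 TPM. The cubilin partner Amn was at 3.57, 3.39 and 3.41 TPM against 0.875, 0.630 and 0.665 TPM (1.37 ± 0.09), and the endocytic adaptor Dab2 differed by 1.35 ± 0.11. Cubn itself was uneven, with 3.83, 1.34 and 0.992 TPM in SOX17+ replicates 1, 2 and 3 against 0.128 to 0.148 TPM (1.31 ± 0.26). Megalin, the other large uptake receptor, did not pass the test: Lrp2 was at 0.946, 0.489 and 0.617 TPM against 0.504, 0.533 and 0.416 TPM (adjusted p = 0.21). Of the 8 genes, 7 were called higher (median 1.07).

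The transcription factors of this layer were abundant. Hnf4a, a nuclear receptor of visceral endoderm and liver (chr2:163506808-163572910), was at 28.2, 29.4 and 30.8 TPM against 5.83, 5.68 and 4.94 TPM (2.23 ± 0.08, adjusted p = 2.2e-09). Foxa1 was at 44.7, 38.1 and 44.0 TPM against 15.6, 13.5 and 17.0 TPM (1.41 ± 0.19), and Foxa3 differed by 1.33 ± 0.12. Foxa2, at 83.2, 76.9 and 90.5 TPM against 58.2, 49.2 and 71.9 TPM, did not pass the test (0.49 ± 0.22, adjusted p = 0.11). Of 9 listed factors, 8 were tested and 7 were called higher (median 1.13). These factors, as well as Ttr, Apom and Spink1, are also made by definitive gut endoderm and its derivatives, so the list does not by itself name visceral endoderm.

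**Figure D3:**
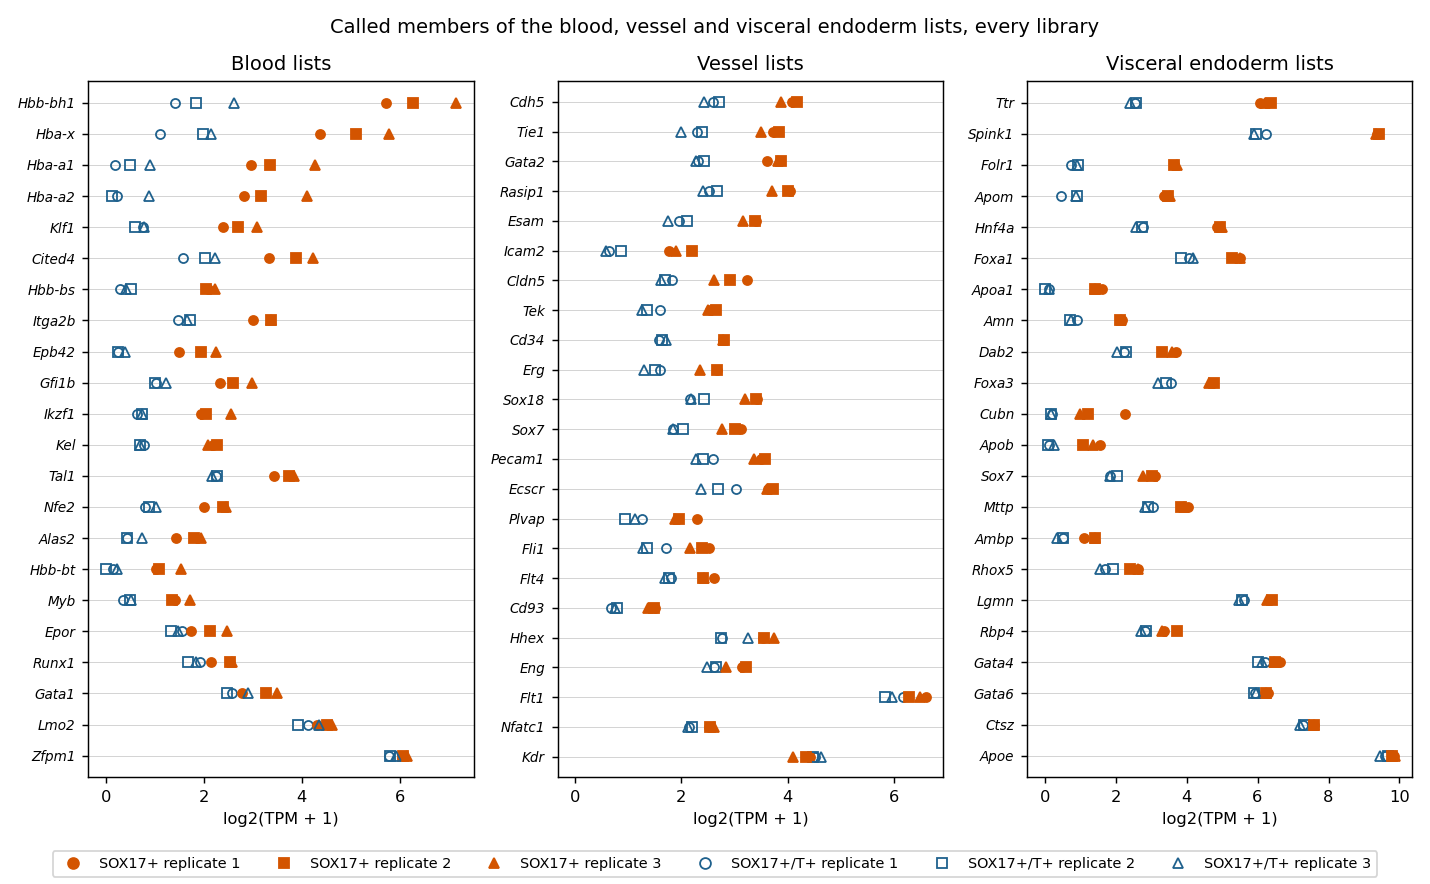
Each row is a called member of the blood, vessel or visceral endoderm lists (23 vessel genes, with Tal1, which is in both lists, drawn among the blood genes, and 22 blood and 22 visceral endoderm genes of the highest differences), with log2(TPM + 1) in SOX17+ (filled) and SOX17+/T+ (open) replicates on the x axis. Globins spread most within SOX17+ cells, with replicate 3 highest, while Ttr, Spink1, Folr1 and Hnf4a are nearly equal in the 3 replicates.

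The 3 signals did not share the same library-to-library pattern in SOX17+ cells. The summed level of the erythroid and blood regulators was 130.1, 147 and 165 TPM in replicates 1, 2 and 3. That of the endothelial regulators was 60.8, 61.3 and 56.3 TPM, and that of the visceral endoderm carriers 1690.1, 1695 and 1700.4 TPM. Most of the carrier sum was Apoe and Spink1, with means of 917 and 663 TPM. Globins differed most between replicates (SD 75.5 TPM around a mean of 152 TPM), with replicate 3 at the top, whereas the vessel sum was lowest in replicate 3 and the carrier sum was flat. With 3 libraries this is a description only, and no relation between the signals was tested.

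In double-positive cells the same sums were 86.6 to 99.2 TPM for blood regulators, 29.5 to 29.8 TPM for endothelial regulators and 774 to 896 TPM for carriers, none overlapping with SOX17+ libraries (exact permutation p = 0.1 each, the smallest possible). The ratios of the means were 1.62, 2.01 and 2.00. In double-positive cells Apoe and Spink1 averaged 764 and 64.8 TPM, so the carrier ratio largely reflects these genes. Among the 10 blood, vessel and visceral endoderm lists, parietal endoderm included, the sum of the erythroid enzyme and membrane list was the 1 with groups that overlapped (exact permutation p = 0.2). Most of that sum was Cd24a, which many cell types make (468 to 511 TPM against 456 to 503 TPM).

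**Figure D4:**
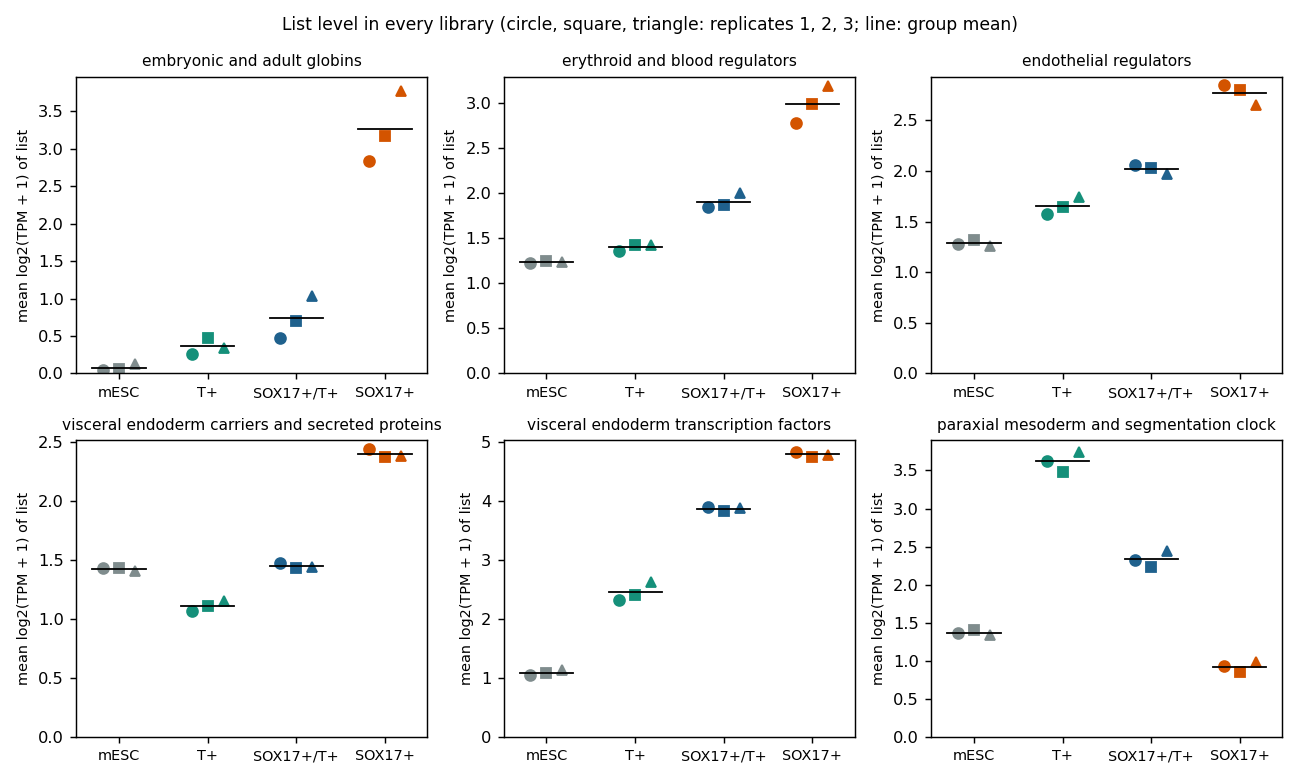
Each panel plots, for 1 gene list, the mean log2(TPM + 1) over all its members in every library of the 4 groups, with the group mean as a line. Globins, blood and endothelial regulators, visceral endoderm carriers and visceral endoderm transcription factors are highest in SOX17+ cells among the 4 groups, with globin levels of 2.84 to 3.77 on this scale, and the paraxial mesoderm list is lowest there.

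Genes that parietal endoderm, the other extraembryonic endoderm, uses for its thick basement membrane split in 2. The collagen IV chains Col4a1 (229, 178 and 217 TPM against 107, 103 and 95.3 TPM, 1.01 ± 0.10) and Col4a2 (1.01 ± 0.11), the matrix protein Sparc (1.05 ± 0.09), the protease Plat (1.24 ± 0.12) and the receptor Pth1r (0.93 ± 0.07) were higher. Snai1 (-1.26 ± 0.09), Pdgfra (-0.77 ± 0.10) and Vim (-0.21 ± 0.07, a call lost in 4 of 14 settings), which parietal endoderm shares with mesenchyme, were lower. In all, 9 of 13 were called higher and 3 lower, with a median of 0.36. Thbd, a surface marker of parietal endoderm, was higher at a low level (0.542 to 0.785 TPM against 0.138 to 0.228 TPM).

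The definitive endoderm list was divided along the line between epithelial endoderm and the streak. Of 16 genes, 9 were called higher and 4 lower (median 0.37). Foxa1, Hhex (10.6, 10.8 and 12.3 TPM against 5.76, 5.71 and 8.49 TPM, 0.69 ± 0.13), Prdm1 (0.60 ± 0.10), Krt18 (0.42 ± 0.08), Krt8 (0.33 ± 0.09), Gata4 (0.41 ± 0.06) and Gata6 (0.32 ± 0.06) were higher, beside Sox17. Cer1, Gsc, Mixl1 and Cxcr4, genes of the anterior streak and nascent endoderm, were lower. Gsc was at 1.39, 0.989 and 2.58 TPM against 4.03, 3.64 and 6.06 TPM (-1.09 ± 0.22, adjusted p = 0.0022). Eomes and Trh, the latter at 469, 355 and 455 TPM against 416, 297 and 508 TPM, were not called.

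Foregut and anterior genes were likewise split between regulators of organ-forming endoderm and of the anterior streak. Nkx2-1, the factor of thyroid and lung endoderm, was at 14.3, 15.1 and 13.8 TPM against 1.85, 1.63 and 1.05 TPM (2.63 ± 0.10, adjusted p = 3.0e-09). The gut peptide gene Pyy was at 8.27, 8.02 and 8.59 TPM against 0.631, 0.895 and 0.537 TPM (2.47 ± 0.09). The midgut and foregut gene Nepn (1.62 ± 0.10) and the pharyngeal factor Pax9 (1.30 ± 0.09) were higher at under 5 TPM. The SOX17+ libraries were close to each other for Nkx2-1 and Pyy.

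The secreted antagonist Cer1 went the other way and was uneven in both groups. It was at 1.84, 0.787 and 4.89 TPM in SOX17+ cells and 8.69, 6.72 and 27.3 TPM in double-positive cells (-2.05 ± 0.67, adjusted p = 0.040). Its call was lost in 6 of 14 settings. The head organizer gene Otx2 had the same spread, 4.46, 3.22 and 9.74 TPM against 8.28, 6.16 and 19.8 TPM, and was not called (adjusted p = 0.19). Replicate 3 was highest in both groups for both genes. Of 15 tested foregut and anterior genes, 7 were called higher and 3 lower (median 0.40, but -0.26 over the members with a mean of at least 5 TPM). Of the 15, 3 passed the filter only through the SOX17+ libraries and 1 only through the double-positive libraries. Of 6 tested midgut and hindgut genes, Sfn was called higher (0.50 ± 0.09) and Cdx4 lower (-0.40 ± 0.11), and Cdx2, at 30.4 to 39.7 TPM in SOX17+ cells, was not called.

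Streak genes were lower beyond T itself. Mesp1, the first factor of cardiac and paraxial mesoderm (chr7:79792241-79793788), was at 1.46, 0.719 and 0.641 TPM in SOX17+ cells and at 26.7, 25.7 and 23.9 TPM in double-positive cells (-3.79 ± 0.16, adjusted p = 7.0e-09). The NODAL co-receptor Tdgf1 was at 1.58, 0.970 and 1.54 TPM against 14.2, 10.5 and 18.3 TPM (-2.67 ± 0.17). Fgf8, which moves cells out of the streak, was at 13.1, 7.82 and 16.2 TPM against 69.4, 54.1 and 72.4 TPM (-2.35 ± 0.22). None of these groups overlapped, and T+ cells held more of each, with means of 78.2, 27.0 and 120.3 TPM.

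The posterior ligand Wnt3 (-1.27 ± 0.09), the node and streak factor Lhx1 (-0.98 ± 0.17), the WNT-responsive factor Sp5 (-0.99 ± 0.12), Nodal (-0.74 ± 0.16) and Mixl1 (-0.64 ± 0.18) were lower too. Of 13 streak genes, 10 were called lower and none higher, with a median of -0.99. Eomes (11.7, 7.98 and 13.2 TPM against 14.7, 9.51 and 14.9 TPM), Evx1 and Wnt3a were not called. T and genes chosen for their link to it open this list, and the T gate bears on it directly.

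Paraxial mesoderm and the segmentation clock gave the lowest median of any list apart from the reporter genes (-1.32), with 12 of 15 tested genes called lower and none higher. Msgn1, which drives presomitic maturation, was at 0.0624, 0.0528 and 0.524 TPM against 12.2, 12.1 and 9.07 TPM (-3.33 ± 0.18). The Notch ligand gene Dll3 was at 4.89, 4.16 and 4.55 TPM against 28.6, 25.8 and 34.1 TPM (-2.46 ± 0.11), and the R-spondin gene Rspo3 at 4.98, 5.51 and 5.61 TPM against 31.3, 30.2 and 34.8 TPM (-2.38 ± 0.09). Tbx6 (-1.84 ± 0.16), Foxc1 (-1.67 ± 0.09) and Mesp2 (-1.36 ± 0.08) were lower as well. The summed list was 19.3 to 22.9 TPM in SOX17+ cells, 120.3 to 138 TPM in double-positive cells and 374 to 423 TPM in T+ cells.

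Lateral and cardiac mesoderm genes were reduced less, and some were higher. Hand1, a factor of lateral and extraembryonic mesoderm, was still at 249, 281 and 264 TPM in SOX17+ cells against 389, 442 and 463 TPM (-0.70 ± 0.07). Foxf1 (-1.17 ± 0.09) and Hand2 (-0.92 ± 0.11) were lower. Nkx2-5, known from heart precursors and from pharyngeal and foregut regions, was higher at 2.90, 4.55 and 3.35 TPM against 0.872, 1.04 and 0.905 TPM (1.23 ± 0.12), and Gata5 was higher by 0.68 ± 0.09. Of 11 tested genes, 5 were called lower and 2 higher (median -0.36).

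Node and notochord genes were lower in 9 of 12 cases (median -0.95). T, on which the gate acts, is in this list and is counted among those called lower. Nog, a BMP antagonist, was at 5.06, 6.15 and 5.22 TPM against 14, 15.4 and 21.1 TPM (-1.45 ± 0.16). The ciliary factor Foxj1 (-1.32 ± 0.22), Noto (-1.02 ± 0.26) and Sox9 (-0.88 ± 0.14) were lower, and Shh (8.25, 5.40 and 8.06 TPM against 13.6, 13 and 25.7 TPM, -1.12 ± 0.34, adjusted p = 0.029) was called with a loss in 3 of 14 settings. The ciliary dynein gene Dnah11 was called higher, at 0.72 ± 0.07, but it passed the filter only through the SOX17+ libraries. Among the largest rises was another hedgehog ligand, Ihh, which visceral and gut endoderm produce, at 21.6, 19.2 and 20.7 TPM against 3.22, 3.26 and 2.93 TPM (2.38 ± 0.09, adjusted p = 2.2e-09). Of the 10 axial progenitor genes, 3 were called lower, T, Fgf8 and Cdx4, and Nkx1-2 was called higher (7.54, 5.47 and 7.70 TPM against 2.49, 2.16 and 3.11 TPM, 1.14 ± 0.18).

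Epithelial genes were higher in SOX17+ cells. Epcam was at 234, 218 and 233 TPM against 111, 102 and 102 TPM (1.12 ± 0.05, adjusted p = 8.8e-09), and the tight junction gene Cldn7 at 180.3, 180.5 and 185 TPM against 81.5, 75.2 and 71.5 TPM (1.25 ± 0.07). The polarity gene Crb3 (1.14 ± 0.11), the claudins Cldn8 (1.00 ± 0.09) and Cldn6 (0.94 ± 0.09) and the E-cadherin gene Cdh1 (0.74 ± 0.08) were higher as well. Of 20 junction and keratin genes, 14 were called higher and 1, the desmosome gene Dsp (-0.38 ± 0.09), lower (median 0.58). Of the 20, 2 passed the filter only through the SOX17+ libraries, Cldn8 among them. Of 14 tested epithelial regulators and proteases, 12 were called higher and 1 lower (median 0.81), led by the sorting adaptor Ap1m2 (1.52 ± 0.10), the serine proteases Prss8 (1.35 ± 0.07) and Tmprss2 (1.11 ± 0.08) and the small GTPase Rab25 (0.96 ± 0.10). Grhl3 was lower (-0.58 ± 0.10) while its relatives Grhl1 and Grhl2 were higher.

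Mesenchymal genes were lower without exception in this list, 14 of 14 called (median -0.79, and 13 of 14 without the filter). The N-cadherin gene Cdh2 was at 36.5, 29.9 and 36.5 TPM against 68.5, 56.2 and 74.4 TPM (-0.93 ± 0.10), and the repressor of E-cadherin Snai1 at 11.7, 11.4 and 10.8 TPM against 26.1, 27.7 and 31.8 TPM (-1.26 ± 0.09). Prrx1 (-1.24 ± 0.13), Twist1 (-1.06 ± 0.14), Zeb2 (-1.0 ± 0.14) and Twist2 (-0.91 ± 0.13) were lower. The abundant Fn1 (780.2, 678 and 674 TPM against 982, 963 and 865 TPM) and Vim differed by -0.40 ± 0.10 and -0.21 ± 0.07.

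Ligands of the streak were lower across several pathways, while their target genes did not all follow. For BMP, Bmp4 was at 43.2, 44.5 and 39.8 TPM against 119, 125 and 125 TPM (-1.51 ± 0.04, adjusted p = 5.9e-10), and Bmp5 (-1.06 ± 0.09), Bmp7 (-0.78 ± 0.06) and Bmp2 (-0.77 ± 0.10) were lower. Of 8 ligands and antagonists 6 were called lower and 1, the pseudoreceptor gene Bambi (0.49 ± 0.05), higher. Of 8 BMP target genes none was called lower and 4 were called higher: Id4 (0.81 ± 0.09), Smad6 (0.28 ± 0.07), Msx2 (0.24 ± 0.06) and Id1 (0.23 ± 0.08). The Id1 call was lost in 8 of 14 settings. Limma called 0 targets lower, and Msx1 was the furthest below 0, with a difference of -0.19 ± 0.08 (adjusted p = 0.087).

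For FGF, 6 of 8 tested ligands were called lower and none higher (median -0.75), with Fgf18 (-1.10 ± 0.18), Fgf15 (-1.09 ± 0.12) and Fgf10 (-0.92 ± 0.07) beside Fgf8. The receptor Fgfr4 was among the largest rises, at 24.3, 25.4 and 21.9 TPM against 4.05, 4.07 and 2.87 TPM (2.42 ± 0.10, adjusted p = 5.4e-09). Fgfr1 was lower (-0.39 ± 0.08), and Fgfr2 and Fgfr3 were not called. The feedback inhibitors Spry4 (0.73 ± 0.12) and Spry1 (0.40 ± 0.06) and the target Etv5 (0.47 ± 0.06) were higher, while Dusp4 was lower (-0.44 ± 0.09) and Dusp6 was not called. FGF ligands and targets thus did not move in 1 direction.

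Of 13 NODAL pathway genes, 8 were called lower and none higher (median -0.45). Lefty2, a feedback inhibitor, was at 0.233, 0.158 and 0.284 TPM against 3.20, 2.41 and 4.30 TPM (-1.79 ± 0.15), and the co-receptor Cfc1 was at 161, 171 and 145 TPM against 274, 277 and 282 TPM (-0.80 ± 0.07, not called with a pseudocount of 0.1). Of 9 tested WNT ligands, 5 were called lower and none higher, with Wnt5a (-0.83 ± 0.10), Wnt6 (-0.57 ± 0.13), Wnt8a (-0.57 ± 0.14) and Wnt11 (-0.47 ± 0.13) beside Wnt3. WNT antagonists were divided. Wif1 (16.2, 14.5 and 13.9 TPM against 5.34, 5.16 and 6.15 TPM, 1.27 ± 0.12), Sfrp5 (0.67 ± 0.11), Dkk1 (0.58 ± 0.13) and Frzb (0.56 ± 0.12) were higher, and Sfrp1 (-1.40 ± 0.15), Shisa2 (-0.71 ± 0.09) and Sfrp2 (-0.62 ± 0.06) were lower.

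WNT target genes were split in the same manner, 6 of 10 called lower and 3 higher. Ccnd1 (43.0, 39.7 and 39.9 TPM against 77.7, 80.4 and 89.2 TPM, -0.99 ± 0.05), Sp5, Lef1 (-0.93 ± 0.08) and Axin2 (-0.45 ± 0.06) were lower. The receptor ligase Rnf43 (0.95 ± 0.08), Lgr5 (0.52 ± 0.16) and Nkd1 (0.42 ± 0.07) were higher, although the Lgr5 call was lost in 7 of 13 settings.

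Transcripts of the retinoic acid pathway differed in both directions. Aldh1a2, the enzyme that makes retinoic acid in early mesoderm, was at 4.77, 3.61 and 4.78 TPM against 65.4, 55.9 and 61.3 TPM (-3.53 ± 0.10, adjusted p = 5.2e-10), with 270.2 TPM on average in T+ cells. The binding proteins Crabp1 (-1.96 ± 0.12) and Crabp2 (-1.90 ± 0.18) and the retinol dehydrogenase Rdh10 (-0.78 ± 0.07) were lower. The receptor Rarb, a textbook target of retinoic acid, was higher, at 3.95, 2.98 and 3.35 TPM against 0.894, 1.63 and 0.923 TPM (1.05 ± 0.13), and the degrading enzyme Cyp26a1 was not called (11.1, 8.20 and 11.8 TPM against 11.8, 8.56 and 11.8 TPM). Of 12 tested genes, 6 were called lower and 3 higher, and 1 of the 12 passed the filter only through the SOX17+ libraries. Ptgds, a prostaglandin D synthase that also binds retinoids, had the largest fall of all, from 89.6, 89.6 and 79.6 TPM in double-positive cells to 3.85, 3.52 and 2.64 TPM in SOX17+ cells (-4.34 ± 0.13).

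HOX genes differed by paralog number and by cluster. Of 11 tested genes of paralogs 1 to 4, 7 were called lower and none higher (median -0.46). Hoxb1 was at 4.32, 2.86 and 2.36 TPM against 9.82, 8.82 and 7.38 TPM (-1.23 ± 0.15). Hoxa3 (-1.42 ± 0.13), Hoxa2 (-1.05 ± 0.09), Hoxb3 (-0.65 ± 0.10) and Hoxa4 (-0.46 ± 0.10) were lower, at under 3 TPM in SOX17+ cells.

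The next genes of the B cluster were the opposite. All 4 tested B genes of paralogs 5 to 8 were called higher: Hoxb6 (8.55, 7.91 and 7.06 TPM against 3.69, 3.68 and 2.93 TPM, 1.00 ± 0.11), Hoxb5 (0.81 ± 0.11), Hoxb8 (0.73 ± 0.14) and Hoxb7 (0.55 ± 0.10). Hoxa5 of the A cluster was lower (-0.69 ± 0.11), and the 3 tested C genes of paralogs 5 to 8 were not called. Hoxd9 was lower (6.40, 6.68 and 7.23 TPM against 12.9, 13.1 and 11.1 TPM, -0.78 ± 0.12). Of 17 tested genes of paralogs 5 to 13, 5 were called higher and 2 lower.

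Some ligands of migration differed in the direction opposite to their receptors. The chemokine Cxcl12 was higher in SOX17+ cells (8.30, 7.28 and 9.72 TPM against 1.82, 1.81 and 2.34 TPM, 1.65 ± 0.13), while its receptors Ackr3 (-0.85 ± 0.11) and Cxcr4 (34.8, 34.2 and 42.6 TPM against 47.0, 48.0 and 65.2 TPM, -0.50 ± 0.18, adjusted p = 0.047) were lower. The peptide hormone gene Apela was at 528, 504 and 487 TPM against 201, 210.0 and 177 TPM (1.37 ± 0.08), and its receptor Aplnr at 25.7, 25.4 and 22.8 TPM against 58.3, 57.5 and 60.0 TPM (-1.22 ± 0.06). Apln, the other ligand of Aplnr, was lower like the receptor, at 2.98, 2.18 and 1.89 TPM against 4.51, 2.82 and 3.13 TPM (-0.42 ± 0.15, adjusted p = 0.043), and its groups overlapped. Slit2 (-1.64 ± 0.18) and Unc5c (-1.12 ± 0.08), a guidance ligand and a netrin receptor, were lower. In all, 6 of 17 were called higher and 9 lower.

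The other largest rises were surface and matrix genes. The peptidase Dpp4 was at 28.5, 29.8 and 29.9 TPM against 4.23, 3.94 and 2.80 TPM (2.72 ± 0.11), the cadherin Cdh6 at 29.3, 25.5 and 28.2 TPM against 5.40, 4.80 and 3.66 TPM (2.36 ± 0.10), the aminopeptidase Enpep differed by 2.31 ± 0.13 and the extracellular protein Reln by 2.21 ± 0.08. These 4 genes had no overlap between groups. Among the largest falls, Alox15, a lipoxygenase, was at 3.94, 3.39 and 4.50 TPM against 26.5, 22.7 and 28.5 TPM (-2.44 ± 0.12), and Scara3 (-2.79 ± 0.13), Mfap4 (-2.22 ± 0.12) and Limch1 (-2.02 ± 0.15) were lower.

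Markers of other cells were called in both directions, mostly at low levels, and their part in the results was not tested. Of 12 feeder fibroblast genes, 2 were called higher and 4 lower, the summed level was 51.6 to 58.4 TPM in SOX17+, 50.7 to 61.9 TPM in double-positive and 3543 TPM or more in every mESC library, and S100a4 was listed at 0 in all 6 libraries. Of 7 tested trophoblast genes, 3 were called higher and 1 lower, with sums of 580.1 to 677 and 661 to 777 TPM, nearly all from Peg10, and Elf5, Tpbpa and Prl3d1 were listed at 0 in all 6. Of 9 germ cell genes, 2 were called higher and 4 lower, with sums of 65.1 to 73.6 and 49.0 to 54.6 TPM, and Dppa3 was listed at 0 in all 6. Of 6 tested neural genes, Tubb3 was called higher (0.81 ± 0.13) and Ncam1 lower (-1.49 ± 0.12), with sums of 4.11 to 5.19 and 8.18 to 10.6 TPM.

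Most called cell cycle genes were lower. Top2a was at 125, 121 and 123 TPM against 216, 205 and 205 TPM (-0.75 ± 0.04, adjusted p = 2.3e-08), and Cenpf (-1.14 ± 0.11), Ccnb1 (-0.66 ± 0.06), Mki67 (-0.66 ± 0.18), Kif11 (-0.57 ± 0.04) and Aurka (-0.56 ± 0.06) were lower. The mitotic cyclin gene Ccnb2 (105, 102 and 99.9 TPM against 100.2, 98.9 and 95.8 TPM, 0.05 ± 0.05, adjusted p = 0.41) was not called. Mcm5 (0.21 ± 0.06), Ccne1 (0.17 ± 0.05) and Mcm2 (0.14 ± 0.04) were higher, and Pcna was at 247, 237 and 251 TPM against 241, 224 and 245 TPM and not called. Of 20 cell cycle genes 13 were called lower and 3 higher (median -0.46). The CDK inhibitor gene Cdkn1c was higher (415, 422 and 401 TPM against 215, 240.3 and 210.4 TPM, 0.89 ± 0.08), and Cdkn1a (-0.64 ± 0.07), Ccnd2 (-0.73 ± 0.05) and Trp53inp1 (-0.89 ± 0.07) were lower.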

How the data were processed

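Poly(A) RNA of sorted cells was measured in 12 libraries, and 6 of them form the comparison. The authors deposited 1 table of TPM values with 1 column per library. Cutadapt, STAR and StringTie, and the builds mm10 and GRCm38, are named in the submitters' processing notes without versions. No annotation release or filter is named there. Of 54480 rows, 282 empty cells were set to 0 and 11 split genes were summed, which left 54446 genes. No counts were used, so read depth per library and counting error are unknown.

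Values were transformed as log2(TPM + 1), with a pseudocount of 1. Genes with at least 1 TPM in 3 or more of 12 libraries were kept. The model was fitted in R 4.3.3 with limma 3.58.1, using trend and robust in eBayes, with 4 group means and 8 residual degrees of freedom, 2-sided, adjusted by Benjamini-Hochberg over all 16097 genes. It was tested on simulated data. Gene lists got no set test. They were described by counts and medians, and their sums by an exact permutation test.

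The members, 45 lists (509 genes, 508 found, 52 in more than 1 list) and tests were chosen with earlier results of these data known. Named were T and Sox17, the 15 largest rises and falls among called genes with no overlap and a mean of at least 10 TPM in the higher group (predicted genes, RIKEN clones and bare identifiers left out), up to 6 called members and the 3 most abundant of each list, and any blood, vessel or visceral endoderm member. Other members named without a call serve as contrast and were chosen after their values were seen. Of 2 symbols with several identifiers (Aldoa, Hoxd4) the more abundant was used. Alternatives were another pseudocount, filters, scalings, fewer libraries, a simpler fit, a replicate block and leaving out each replicate. Promoters came from RefSeq. The planned rule was to print those of the genes with the largest differences. Instead 30-base windows around a GATAA match were printed for 4 genes, chosen after values and matches were seen. Some genes that the naming rule selects are not reported here, but they remain in the fits and in the counts of their lists.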

Additional observations from a re-analysis of the deposited data

How the results depend on the processing

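Of 306 named and tested genes, 272 were called, none changed direction in any alternative that tested it, and 242 kept their call in all of them. With a pseudocount of 0.1, the counts of genes at least 2-fold apart rose to 492 higher and 464 lower, and the median differences became 4.12 for globins, 2.01 for erythroid and blood regulators, 2.07 for erythroid enzymes and membrane proteins, 0.24 for other blood lineages, 1.21 for endothelial regulators, 1.30 for endothelial receptors and junction genes, 2.35 for visceral endoderm carriers, 1.30 for uptake machinery and 1.26 for visceral endoderm transcription factors. With a mean of at least 5 TPM, fewer genes were tested. There 125 genes were at least 2-fold higher and 128 at least 2-fold lower, so the excess of 2-fold rises was absent. Called higher were 2 globins (median 3.88), 3 erythroid regulators (0.35), 1 erythroid enzyme or membrane gene (0.13) and 2 endothelial regulators (1.06). So were 6 endothelial receptor and junction genes (0.48) and 5 carriers, and uptake machinery had a median of 0.82. Quantile normalization gave the parietal endoderm list a median of 0.28, and 2908 genes higher against 3217 lower.

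Leaving out 1 replicate at a time gave 2711 to 3128 genes higher and 2191 to 2664 lower. The median of endothelial regulators then ranged from 0.82 to 1.02 and that of uptake machinery from 0.86 to 1.14. The single lower call among endothelial receptors, Kdr, became 0 without the filter, with only the 6 libraries, with a pseudocount of 0.1, without trend and robust, with the replicate block and without 5 of the 6 replicates in turn (0 to 1).

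Same-numbered SOX17+ and SOX17+/T+ libraries correlated at r = 0.046, 0.178 and 0.224 after group means were removed. Differently numbered libraries correlated at -0.249 to 0.085. The labels name no pairs, and the main fit used none. Whether same-numbered libraries share an origin was not tested. With the replicate block 3307 genes were called higher and 2871 lower. A fit of only the 6 libraries, without the block, gave 2719 and 2244.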

Other observations

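The glucose transporter genes Slc2a3 (2859, 2844 and 2505 TPM in SOX17+ cells against 1792, 1658 and 1228 TPM in double-positive cells, 0.83 ± 0.15, limma adjusted p = 0.0025) and Slc2a1 (0.64 ± 0.12) were higher, without overlap. Of the 19 tested genes of the glycolysis and hypoxia list they were the only 2 called higher (10.5%, against 19.8% of all tested genes), and 13 were not called. The enzyme genes called lower were Pfkp (-0.36 ± 0.12), Aldoa (-0.28 ± 0.08), Gpi1 (-0.23 ± 0.07) and Pkm (-0.17 ± 0.05), and each call was lost in at least 4 of 14 settings.

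Pluripotency genes were called in both directions. Pou5f1 was at 6.03, 5.08 and 5.96 TPM against 26.7, 26.2 and 22.3 TPM (-1.96 ± 0.11) and Nanog differed by -1.32 ± 0.22. Tfcp2l1, a naive pluripotency factor that epithelia also use, was higher (3.83, 4.15 and 4.17 TPM against 1.01, 1.14 and 1.09 TPM, 1.28 ± 0.07), as were Tbx3 (0.66 ± 0.06), Lin28a (0.49 ± 0.07) and the threonine enzyme Tdh (0.95 ± 0.10). Of 13 general pluripotency genes, 6 were called higher and 3 lower.

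Of 12 dissociation stress genes, 3 were called higher and 5 lower, and of 13 mitochondrially encoded genes none was called higher and 3 lower (mt-Nd5 by -0.29 ± 0.06). The GATAA letters occurred before the start of 29.1% of the 196 genes called at least 2-fold higher that have a promoter, and of 15.9% of the 126 called at least 2-fold lower. For TGTTTAC these shares were 5.61% and 0.794%, 11 genes and 1 gene. The shares were not tested.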
